A study of Mus musculus with 36 samples.

Results

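The plasma membrane carriers that bring amino acids into embryonic forebrain cells are described here through 10 genes, chosen around Slc1a5: Slc1a5, Slc1a4, Slc38a1, Slc38a2, Slc7a1, Slc7a3, Slc3a2, Slc7a5, Slc7a11 and Slc6a9. They are 10 of the 46603 genes counted in each table, and all 10 had enough reads to be tested at both stages. Slc1a5 was selected on its measured E12.5 level, which differs in Chd8 hypomorphic cortex, so its E12.5 values are given as a description without a test, and the other 9 genes were picked as carriers of related function. At E12.5, RNA came from the cortex of single C57Bl/6J mouse embryos of 4 genotypes with 3 libraries each: wildtype (Chd8+/+), heterozygote with 1 null allele (Chd8+/-), mild hypomorph with 2 neo alleles (Chd8 neo/neo) and severe hypomorph with 1 neo and 1 null allele (Chd8 neo/-). The neo allele carries a neomycin resistance cassette in an intron of Chd8, which lowers the correctly spliced transcript without removing it, and the null allele was made with a ubiquitous β-actin Cre. At E10.5, RNA of 2 embryos was pooled for each library from telencephalic vesicles of conditional knockouts (sox1-Cre; Chd8f/f, 3 libraries, named cKO) and of controls that the labels give as a combination of Chd8f/f and Chd8 f/+ (3 libraries, named Ctrl). The sox1-Cre deletes in the neuroepithelium, so blood vessels, blood and meninges of the dissected tissue keep Chd8, and the 2 floxed control genotypes cannot be separated in the Ctrl group.

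Cells take up most amino acids through exchangers and sodium-coupled carriers. Slc1a5 (ASCT2) and its relative Slc1a4 (ASCT1) exchange small neutral amino acids across the membrane, glutamine being a main substrate of the former and serine, alanine and cysteine of the latter, while Slc38a1 and Slc38a2 accumulate glutamine and alanine together with sodium. Slc3a2 is the heavy chain (CD98, 4F2hc) that brings light chains to the surface: Slc7a5 (LAT1) then exchanges intracellular glutamine for leucine and other large neutral amino acids, and Slc7a11 (xCT) exchanges glutamate for cystine, the precursor of glutathione. Slc7a1 and Slc7a3 carry the cationic amino acids arginine, lysine and ornithine, and Slc6a9 (GlyT1) takes up glycine. Amino acid entry through these carriers is sensed by mTORC1, and several of the genes are known targets of the stress-induced transcription factor ATF4.

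Chd8 gene counts were lower in every mutant genotype than in its control, and higher in the mild hypomorph than in the heterozygote. Gene counts do not separate correctly spliced from other Chd8 transcripts. The study reported the reverse order for the mild hypomorph and the heterozygote. There the mild hypomorph had less Chd8 transcript by RT-PCR in younger cortex, and less CHD8 protein by western blot at E12.5. The Chd8 gene level ran from 235 to 239 CPM (counts scaled to a common library size with TMM factors) in the wildtype libraries, from 165 to 170 in the heterozygotes, from 202 to 213 in the mild hypomorphs, from 142 to 158 in the severe hypomorphs, and from 160.0 to 184 in Ctrl against 116 to 125 in cKO. Libraries held 38774591 to 61051667 assigned counts at E12.5 and 49632937 to 68488879 at E10.5. Xist, expressed from the inactive X chromosome, marked 4 of the 12 E12.5 libraries as female (Chd8+/+ 3, Chd8+/- 1, Chd8 neo/neo 1 and 2). The 7 dorsal telencephalon markers were present in all 18 libraries, and so were the 6 ventral telencephalon markers. In wildtype the dorsal markers summed to 1205 to 1319 CPM and the ventral ones to 633 to 693, with Nkx2-1 at 73.4 to 98.1. The ventral sum was 572 to 678 CPM in the heterozygote, 542 to 660 in the mild and 528 to 639 in the severe hypomorph. How much ventral tissue the dissections held was not tested. Libraries of a genotype are separate embryos at E12.5 and separate pools at E10.5, and every mutant genotype at E12.5 was set against the same 3 Chd8+/+ libraries.

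Promoter sequence was at hand for 6 of the 10 genes, and 4 stretches are shown. Those of Slc1a4, Slc38a2 and Slc7a1 belong to 3 carriers whose libraries lay below wildtype without overlap in both hypomorphs. The other is that of Slc7a11, which did not move with them. Libraries did not overlap wildtype, in either direction, for 26% of all genes in the mild and 33.3% in the severe hypomorph. The share of genes below wildtype in both was not computed. Each stretch is the 100 bases upstream of the RefSeq start site in GRCm38.p6. All are on the minus strand and written 5′ to 3′ in the direction of transcription. Capitals mark GGGCGG, the core of a GC box, or TGATGNAA, the core of the element bound by ATF4 with C/EBP proteins, on either strand. The stretches lie at chr11:20332714-20332813 (Slc1a4), chr15:96699729-96699828 (Slc38a2), chr5:148399905-148400004 (Slc7a1) and chr3:50443614-50443713 (Slc7a11).
Slc1a4: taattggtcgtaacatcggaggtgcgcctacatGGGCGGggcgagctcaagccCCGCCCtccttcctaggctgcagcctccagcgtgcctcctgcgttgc
Slc38a2: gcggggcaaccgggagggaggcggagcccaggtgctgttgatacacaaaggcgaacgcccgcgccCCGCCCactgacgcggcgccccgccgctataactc
Slc7a1: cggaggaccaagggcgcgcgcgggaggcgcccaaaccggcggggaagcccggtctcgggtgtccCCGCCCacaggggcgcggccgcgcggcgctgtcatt
Slc7a11: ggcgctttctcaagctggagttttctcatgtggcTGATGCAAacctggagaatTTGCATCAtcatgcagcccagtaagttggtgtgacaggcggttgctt

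These 3 carriers, chosen for display after their values were seen, have GC-rich stretches of 65.0%, 72.0% and 79.0% GC with 8, 13 and 17 CG dinucleotides, against a median of 55% and 3 over 32851 RefSeq promoters of that length. Each of them holds GGGCGG within the 100 bases, as do 24.7% of all promoters. Slc6a9 and Slc3a2, whose means in the hypomorphs were not below wildtype, hold it too, in windows of 70.0% and 57.0% GC with 6 and 7 CG dinucleotides, so 5 of the 6 promoters searched do. The Slc7a11 stretch is 50.0% GC with 2 CG dinucleotides and holds TGATGNAA 2 times in opposite directions, at bases -66 to -59 and -47 to -40 from the start site; 1.54% of all promoters hold it at least once in such a stretch. None of the other 5 promoters searched held TGATGNAA in the 250 bases upstream, which says only that these letters are not in that window. For each gene 1 start site was searched, the one nearest the annotated 5′ end, though Slc6a9 has 3 entries and Slc7a1 has 2. The Slc3a2 start site used lies 9472 bases from that end.

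The carriers spanned a wide range in wildtype cortex (see the plot of per-length levels). On the scale of CPM per kb of exon, Slc38a2 stood highest at 90.3 ± 2.12 (SD, n = 3), followed by Slc38a1 at 40.1, Slc3a2 at 29.1, Slc7a5 at 25.6 and Slc1a4 at 16.7. Slc1a5 came sixth at 9.22 ± 1.13, then Slc7a1 at 6.02, Slc6a9 at 2.11, Slc7a11 at 0.942 and Slc7a3 at 0.337. No neighbours in this order overlapped between their 3 libraries. At E10.5 Slc1a5 stood in the fourth place, at 26.6 CPM per kb in Ctrl, where its libraries overlapped those of Slc7a5 at 21.1, and Slc38a1 at 36.8 overlapped Slc3a2 at 32.5. The 2 lowest genes changed places, with Slc7a3 at 0.729 above Slc7a11 at 0.469.

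**Figure D1:**
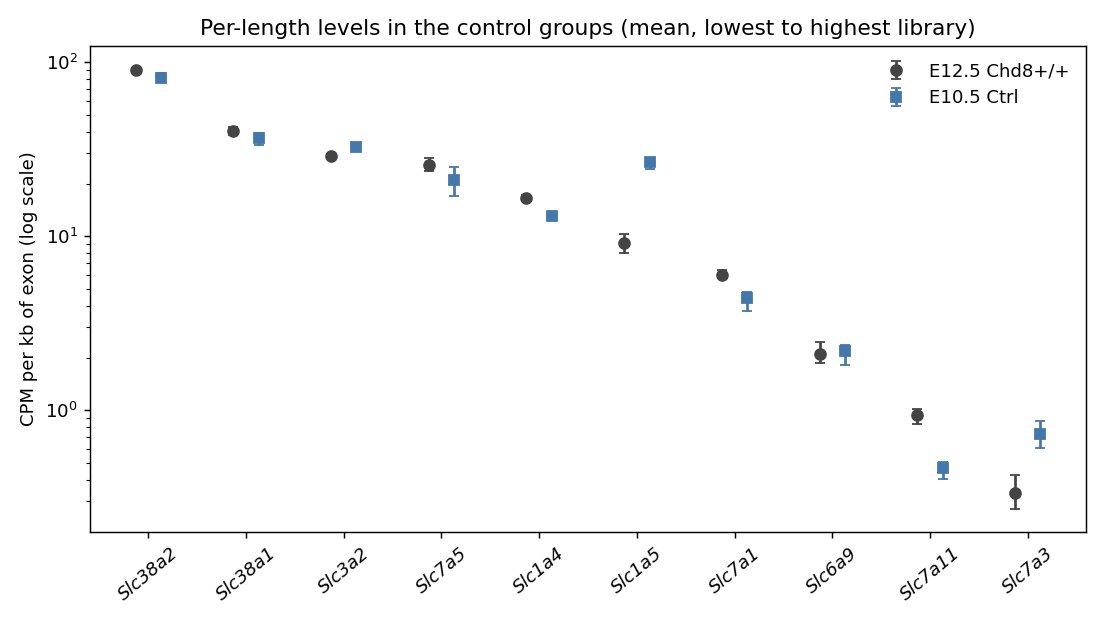
Levels of the 10 transporters per kb of exon (CPM per kb, log axis) in E12.5 Chd8+/+ cortex (circles) and E10.5 Ctrl telencephalon (squares), ordered by the former. Points are means of 3 libraries and bars run from the lowest to the highest library. Slc1a5 stands at 9.22 at E12.5 and 26.6 at E10.5, and Slc7a3 and Slc7a11 exchange the lowest places.

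Slc1a5 was higher in both hypomorphs than in wildtype or heterozygous cortex and in these latter its means differed by less than the spread between libraries. Its level was 42.8, 33.4 and 38.7 CPM in the Chd8+/+ libraries 1 to 3, and 36.7, 40.6 and 37.8 CPM in Chd8+/-. The Chd8 neo/neo libraries held 53.4, 52.8 and 49.7 CPM, and the Chd8 neo/- libraries 48.7, 51.0 and 44.9 CPM. The lowest of the 6 hypomorph libraries, at 44.9, was above the highest of the 6 other libraries, at 42.8. The means were 38.3 ± 4.70, 38.4 ± 2.04, 52.0 ± 1.99 and 48.2 ± 3.05 CPM (SD, n = 3 each), and the log2 differences from wildtype were 0.00 in the heterozygote, 0.44 in the mild and 0.33 in the severe hypomorph. Chd8 neo/neo lay 0.44 above Chd8+/- on the log2 scale, and Chd8 neo/- lay 0.11 below Chd8 neo/neo with overlapping libraries. The order of the means did not run with that of the Chd8 gene counts, which were lower in Chd8+/- than in Chd8 neo/neo. Those counts include transcripts that are not correctly spliced. By the RT-PCR and CHD8 protein levels of the study, Chd8 neo/neo had less than Chd8+/-.

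The spread of Slc1a5 in wildtype was wide for its depth. The coefficient of variation over the 3 Chd8+/+ libraries was 12.3%, against 2.35% from counting error at 1416 to 2186 counts a library. Each library was sequenced in 2 runs, and the runs of a library differed in Slc1a5 by a median of 2.68% and at most 9.3%, so the low value of Chd8+/+ library 2 was present in both runs (31.7 and 34.5 CPM of library size). The Slc1a5 transcript is 56.7% GC, above 86.5% of the genes tested. With the trend of each library against GC content and length removed, the log2 differences were 0.442 and 0.345.

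**Figure D2:**
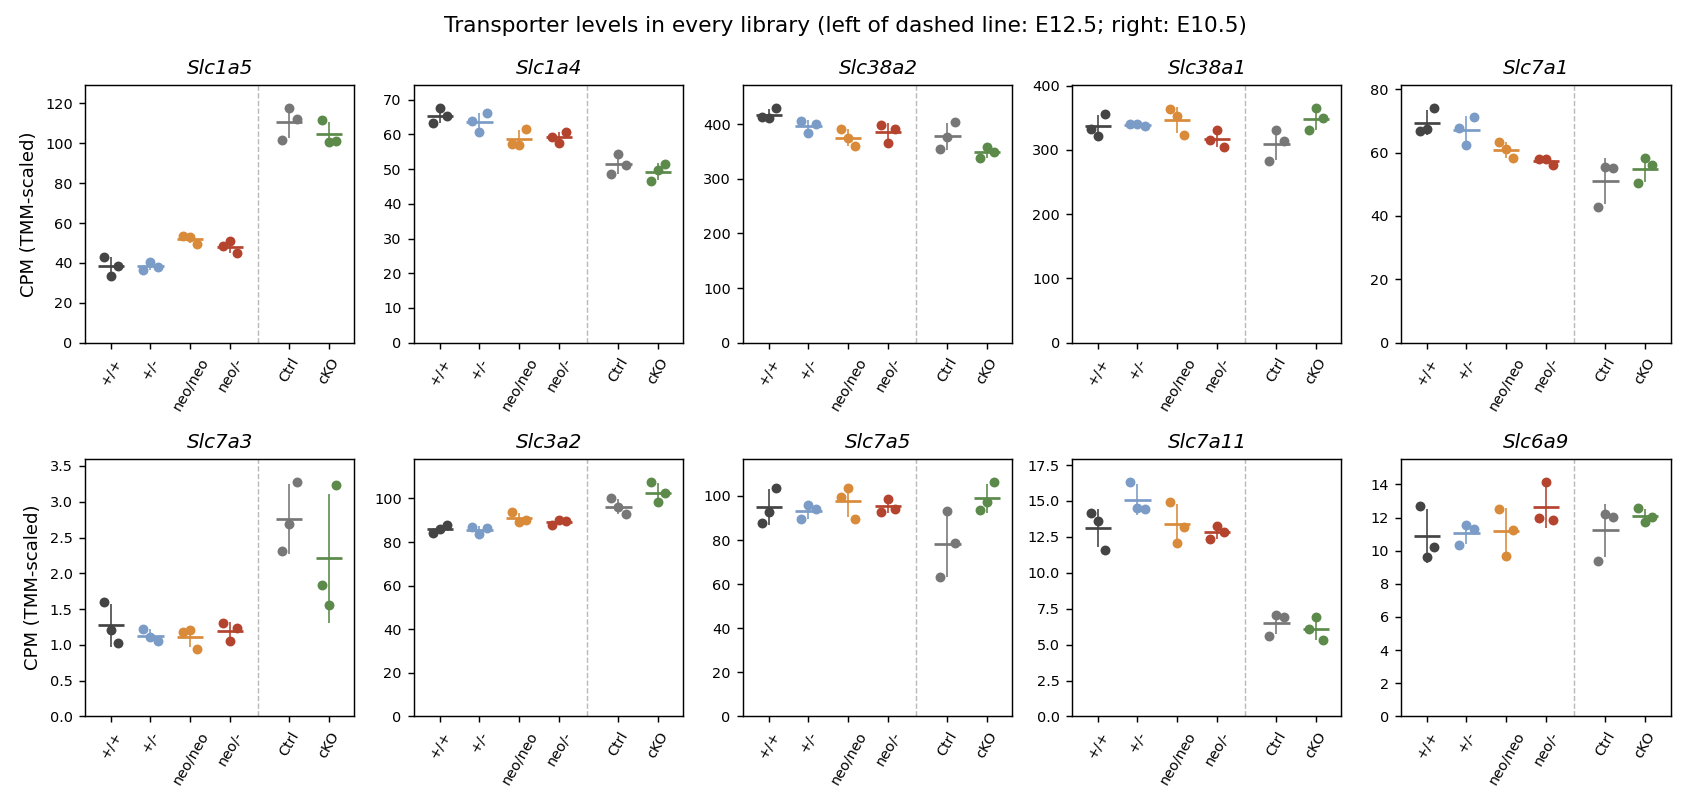
CPM (TMM-scaled) of each transporter in all 18 libraries, with E12.5 genotypes left of the dashed line and E10.5 groups right of it. Points are libraries, horizontal bars means and vertical bars SD over 3 libraries. Slc1a5 has means of 38.3 in Chd8+/+ and 52.0 and 48.2 in the hypomorphs, and the libraries of Slc1a4, Slc38a2 and Slc7a1 lie below wildtype in the same hypomorphs.

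Among the other 9 carriers, 1 passed the genome-wide test in any E12.5 comparison. None was called in Chd8+/- against wildtype, where 0.0213% of the 18810 genes tested were called (edgeR quasi-likelihood test, Benjamini-Hochberg adjusted p under 0.05 over all genes), 1 had an unadjusted p under 0.05 (6.33% of all genes) and DESeq2 called 0 (0.0893%). None of the 9 was called in Chd8 neo/neo, where 8.16% of all genes were called. There 4 of the 9 had an unadjusted p under 0.05, 1 higher and 3 lower, against 25.2% of all genes, and DESeq2 called 3 of them against 16.6%. In Chd8 neo/- 1 of the 9 was called, lower, beside 5.99% of all genes called lower and 11.5% called in either direction. There 3 of the 9 had an unadjusted p under 0.05, all lower, against 26.5% of all genes, and DESeq2 called 2 against 18.1%. The libraries of 2, 4 and 3 of the 9 did not overlap wildtype in the heterozygote, the mild and the severe hypomorph, and the shares over all genes were 11.4%, 26% and 33.3%. The median log2 difference of the 9 was -0.02, 0.03 and -0.09 in turn, and that of all genes was 0.00, 0.01 and 0.00.

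Slc1a4, the closest relative of Slc1a5 in the group, lay on the opposite side of wildtype. Its levels were 63.4, 67.5 and 65.5 CPM in Chd8+/+ and 64.0, 60.8 and 66.1 in Chd8+/-. The mild hypomorphs stood at 57.3, 57.0 and 61.7, and the severe hypomorphs at 59.3, 57.5 and 60.7. All 6 hypomorph libraries were below the lowest wildtype library, and the Chd8+/- libraries overlapped wildtype. The log2 difference was -0.16 in Chd8 neo/neo (SE 0.0484, adjusted p = 0.0575 in edgeR and 0.0297 in DESeq2) and -0.15 in Chd8 neo/- (SE 0.0484, adjusted p = 0.0673 and 0.0448), so neither passed the main test. The 95% interval in Chd8 neo/neo ran from -0.26 to -0.05. The test was passed in Chd8 neo/neo when Chd8 neo/neo library 3 (-0.20, adjusted p = 0.0174 in edgeR) or Chd8+/- library 2 (adjusted p = 0.0476 in edgeR) was left out, and in Chd8 neo/- without Chd8 neo/neo library 3 (adjusted p = 0.0428 in edgeR).

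Slc38a2, the most abundant of the carriers, was also lower in the hypomorphs without passing the test. The Chd8+/+ libraries stood at 413, 411 and 429 CPM and the Chd8+/- libraries at 406, 384 and 401. The Chd8 neo/neo libraries stood at 391, 375 and 360 and the Chd8 neo/- libraries at 398, 366 and 391. No library of the 3 mutant genotypes reached the lowest wildtype value. The log2 difference was -0.07 in the heterozygote (adjusted p = 0.852 in edgeR), -0.15 in the mild hypomorph (SE 0.0471, adjusted p = 0.0572 in edgeR and 0.0158 in DESeq2) and -0.12 in the severe hypomorph (adjusted p = 0.122 and 0.0725). Its paralogue Slc38a1, which has overlapping substrates, stood at 332, 321 and 357 CPM in Chd8+/+, 341, 340 and 337 in the heterozygotes, 363, 353 and 324 in the mild and 316, 330 and 305 in the severe hypomorphs. Slc38a1 overlapped wildtype in every mutant genotype, with log2 differences of 0.01, 0.04 and -0.09 and adjusted p of at least 0.331 in edgeR.

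Slc7a1, the main cationic amino acid carrier of many cells, was the 1 gene of the 9 that fell. Its libraries stood at 66.9, 67.3 and 74.0 CPM in Chd8+/+ and at 67.8, 62.4 and 71.1 in Chd8+/-. They stood at 63.3, 61.0 and 58.3 in the mild and at 58.1, 58.0 and 56.1 in the severe hypomorphs. The means were 69.4 ± 3.97, 67.1 ± 4.41, 60.9 ± 2.53 and 57.4 ± 1.15 CPM (SD, n = 3 each). In Chd8 neo/- the log2 difference from wildtype was -0.27 (SE 0.0561, 95% interval -0.39 to -0.15, adjusted p = 0.00707 in edgeR and 0.0005 in DESeq2), so that the level fell by 17.2%. In Chd8 neo/neo it was -0.19 (SE 0.056, adjusted p = 0.0521 in edgeR and 0.0264 in DESeq2), with no overlap, and Chd8 neo/- lay below Chd8 neo/neo by a further 0.08 without passing the test (log2 -0.08, adjusted p = 0.694 in edgeR). The call in Chd8 neo/- was kept in 21 of 23 alternative analyses. It was lost in both that removed the trend of each library against GC content and length, a choice made after seeing the data, where the log2 difference was -0.16 (adjusted p = 0.161 in edgeR, and 0.204 with the replicate block). Removing the trends in turn instead of together gave -0.173 (adjusted p = 0.127 in edgeR). At 11530 bases of exon Slc7a1 is among the longer transcripts of the group, the median gene tested having 3398. Without Chd8+/+ library 1 or Chd8+/- library 2 the gene was also called in Chd8 neo/neo (adjusted p = 0.0488 and 0.0319 in edgeR).

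Slc7a3, the other cationic carrier and the only X-linked gene of the group, was close to the limit of what these libraries resolve, with 47 to 82 counts in a library at E12.5. Its levels were 1.60, 1.20 and 1.02 CPM in Chd8+/+, 1.23, 1.12 and 1.05 in the heterozygotes, 1.18, 1.21 and 0.942 in the mild and 1.30, 1.05 and 1.24 in the severe hypomorphs. All genotypes overlapped. The 95% intervals of the log2 difference ran from -0.60 to 0.23, from -0.61 to 0.20 and from -0.50 to 0.30 in the same order, so a change of that size in either direction was not detectable at this depth.

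The heavy chain Slc3a2 and its light chain Slc7a5 varied little. Slc3a2 stood at 84.3, 85.9 and 87.7 CPM in Chd8+/+, at 86.9, 83.5 and 86.4 in the heterozygotes, at 93.7, 89.1 and 90.3 in the mild and at 87.6, 90.1 and 89.7 in the severe hypomorphs. The Chd8 neo/neo libraries were above every Chd8+/+ and Chd8+/- library, and the log2 differences of 0.08 and 0.09 had adjusted p of 0.184 and 0.173 in edgeR, with 95% intervals of 0.00 to 0.16 and 0.01 to 0.17. Slc7a5 stood at 87.9, 92.8 and 103.8 CPM in Chd8+/+, at 89.4, 96.1 and 93.9 in the heterozygotes, at 99.7, 103.7 and 89.6 in the mild and at 92.9, 98.7 and 94.2 in the severe hypomorphs. Slc7a5 overlapped in every genotype, with log2 differences from wildtype of -0.03, 0.04 and 0.01.

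The cystine carrier Slc7a11 and the glycine carrier Slc6a9 were low and did not pass the test in any genotype. Slc7a11 stood at 14.2, 13.6 and 11.6 CPM in Chd8+/+ and at 16.3, 14.5 and 14.5 in Chd8+/-, without overlap and with a log2 difference of 0.20 (95% interval 0.01 to 0.40, adjusted p = 0.79 in edgeR). It stood at 14.9, 12.1 and 13.2 in the mild and at 12.4, 13.3 and 12.8 in the severe hypomorphs, overlapping wildtype with log2 differences of 0.03 and -0.03. Slc6a9 stood at 12.7, 9.63 and 10.3 CPM in Chd8+/+, at 10.3, 11.6 and 11.3 in the heterozygotes, at 12.5, 9.70 and 11.3 in the mild and at 11.99, 14.1 and 11.9 in the severe hypomorphs. The largest of its log2 differences from wildtype was 0.22, in Chd8 neo/- (SE 0.115, adjusted p = 0.245 in edgeR). Of its exonic bases, 30.2% are shared with Gm17114, Ccdc24 and B4galt2 on the opposite strand, and the E12.5 counting command named no strand option, so reads over that stretch cannot be assigned. The other 9 genes share no exonic base with another gene.

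Setting the genotypes against each other gave no call among the 9. In Chd8 neo/neo against Chd8+/-, 5.28% of all genes were called in edgeR and 23.2% had an unadjusted p under 0.05, as did 3 of the 9 (Slc3a2 higher, Slc1a4 and Slc7a1 lower). DESeq2 called 0 of the 9 there and 11.9% of all genes, and the libraries of 1 of the 9 did not overlap (Slc3a2), against 25.5%. The edgeR and DESeq2 shares come from fits without a block, though same-numbered libraries of these groups deviated together. With the replicate numbers as a block, edgeR called 572 genes in place of 994, and 0 of the 9. In Chd8 neo/- against Chd8 neo/neo, 0.0159% of all genes were called in edgeR, and 1 of the 9 had an unadjusted p under 0.05 against 8.43%: Slc38a1, with a log2 difference of -0.13 (adjusted p = 0.564 in edgeR). DESeq2 called 0 of the 9 and 0.167% of all genes there, and the libraries of 1 of the 9 did not overlap (Slc7a1), against 15.2%.

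**Figure D3:**
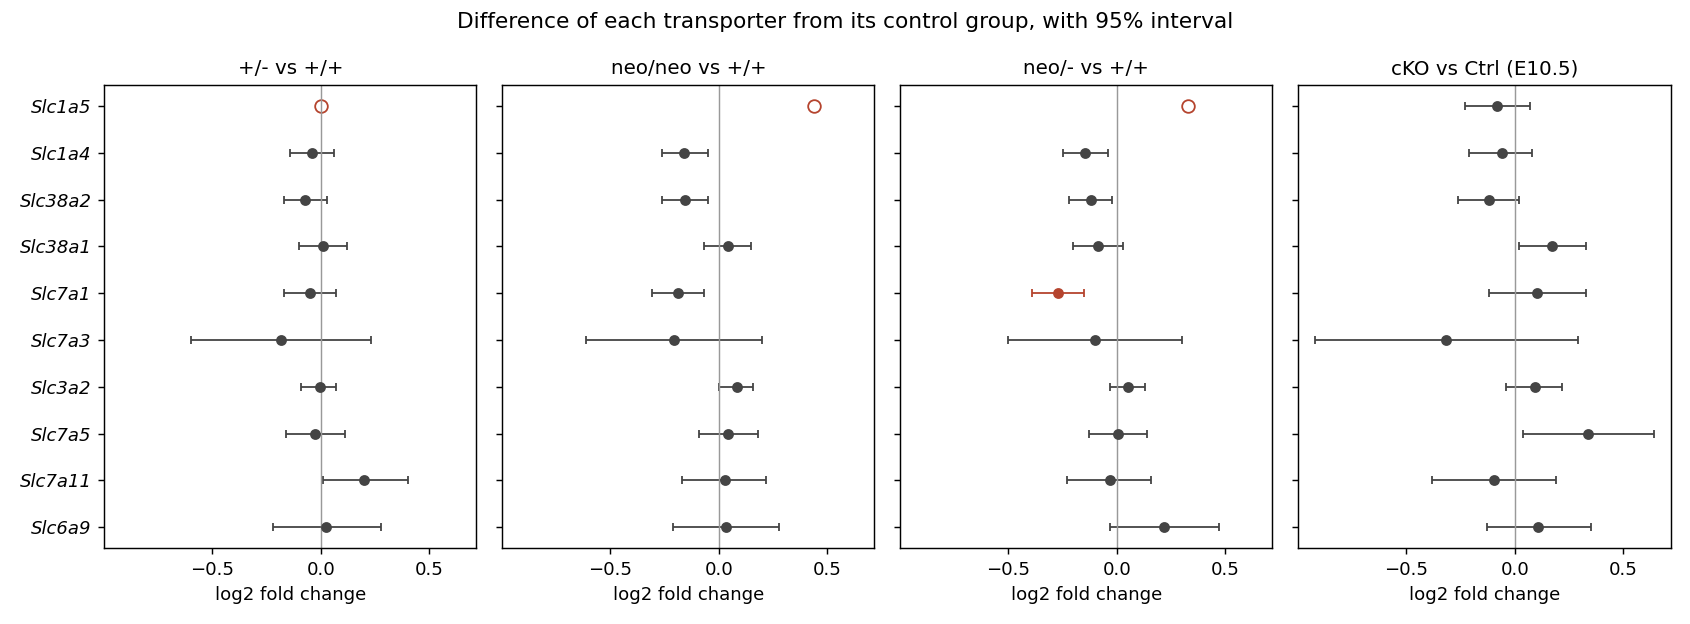
Log2 differences (x axis) of the 10 transporters between each mutant group and its control, with 95% intervals from the edgeR fit. Red filled points have an adjusted p under 0.05 over all genes, and open circles are Slc1a5 at E12.5, shown without interval or test because its E12.5 levels chose it. Slc7a1 in Chd8 neo/- at -0.27 is the red filled point, and Slc1a5 sits at 0.44 and 0.33 in the hypomorphs and at -0.08 in the E10.5 cKO.

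At E10.5, where Chd8 was deleted with sox1-Cre, the Slc1a5 mean was lower than in controls by less than the spread between libraries. It stood at 101.7, 117.5 and 112.3 CPM in Ctrl and at 111.9, 100.6 and 100.9 in cKO. The groups overlapped, with means of 110.5 ± 8.07 and 104.5 ± 6.41 CPM (SD, n = 3 each) and a log2 difference of -0.08 (SE 0.0698, adjusted p = 0.497 in edgeR). The 95% interval ran from -0.23 to 0.07. With GC and length trends removed the log2 difference was -0.163 (adjusted p = 0.0846 in edgeR). None of the 10 carriers was called, while 11.4% of the 18435 genes tested were. An unadjusted p under 0.05 was found for 2 of the 10 against 27.4% of all genes, DESeq2 called 1 of the 10 against 18.3%, and the libraries of 2 of the 10 did not overlap against 32.2%. The median log2 difference of the 10 was 0.02 and that of all genes 0.00.

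The 2 carriers without overlap at E10.5 were Slc7a5 and Slc38a1, both higher in cKO. Slc7a5 stood at 63.0, 93.1 and 78.8 CPM in Ctrl and at 93.5, 97.1 and 106.3 in cKO, where the Ctrl libraries ranged far more widely than the cKO libraries. Its log2 difference was 0.34 (SE 0.131, 95% interval 0.04 to 0.64, adjusted p = 0.142 in edgeR and 0.0224 in DESeq2). Without Ctrl library 2 it was 0.48 (adjusted p = 0.00916 in edgeR), so in edgeR the call turned on that library, while DESeq2 made it with all 6 in. Slc38a1 stood at 282.3, 330 and 314 CPM in Ctrl and at 331, 365 and 349 in cKO, with a log2 difference of 0.17 (SE 0.0697, adjusted p = 0.136 in edgeR). Its highest Ctrl library and lowest cKO library were 330.5 and 331.2 CPM.

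The other carriers overlapped at E10.5. Slc38a2 stood at 354, 376 and 404 CPM in Ctrl and at 338, 358 and 349 in cKO (log2 difference -0.12), and Slc1a4 at 48.7, 54.3 and 51.1 against 46.5, 49.8 and 51.4 (-0.06). Slc7a1 stood at 42.7, 55.6 and 55.1 CPM in Ctrl and at 50.3, 58.4 and 56.2 in cKO (0.10), on the other side of its control from the E12.5 hypomorphs, though its 95% interval of -0.12 to 0.33 includes 0. Slc3a2 stood at 100, 96.0 and 92.8 CPM in Ctrl and at 107.5, 98.3 and 102.3 in cKO (0.09). Slc6a9 stood at 9.40, 12.2 and 12.1 against 12.6, 11.8 and 12.01 CPM (0.11), and Slc7a11 at 5.62, 7.05 and 6.91 against 6.07, 6.93 and 5.32 (-0.10). Slc7a3 stood at 2.31, 2.69 and 3.27 CPM in Ctrl and at 1.84, 1.56 and 3.24 in cKO (-0.32), with a 95% interval from -0.92 to 0.29. The adjusted p of these 7 genes lay at 0.256 or above in edgeR.

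Between the control groups of both stages, Slc1a5 had the widest difference of the 10. Its mean was 110.5 CPM in E10.5 Ctrl and 38.3 CPM in E12.5 Chd8+/+, a 2.89-fold higher level at E10.5. Slc7a3 was 2.16-fold higher at E10.5, and Slc7a11 was 2.01-fold higher at E12.5. The other 7 carriers differed by 1.36-fold or less. The stages also differ in dissection, pooling, experiment and count table, which cannot be told apart from age, so no test was made, and the 2 tables were scaled separately.

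Cell type markers moved with some of these groups, and their part in the results was not tested. In bulk tissue, fewer cells of a type and less RNA per cell cannot be told apart. The summed level of 6 neuron markers ran from 3355 to 4002 CPM in wildtype and from 3454 to 4047 in heterozygotes, against 2764 to 3221 in the mild hypomorph, which overlapped neither, and 3069 to 3450 in the severe hypomorph. In both hypomorphs 2 of the 6 were called lower, Dcx (log2 -0.42 and -0.34) and Map2 (-0.32 and -0.21). Of all genes, 8.16% were called in Chd8 neo/neo, 11.5% in Chd8 neo/- and 11.4% in the E10.5 cKO. The libraries of 26%, 33.3% and 32.2% of all genes in turn did not overlap their control. Whether any marker list exceeded these shares was not tested. Of 6 progenitor markers, 1 was called higher in Chd8 neo/neo, Sox2 (0.29), and 0 in Chd8 neo/-. Chd8 neo/neo also had 1 of 7 dorsal markers called higher, Pax6 (0.19). Called lower were 1 of 8 endothelial markers, Kdr (-0.17), and 1 of 4 pericyte markers, Abcc9 (-0.39). The log2 differences of these 3 lists ran from 0.01 to 0.28, from -0.17 to 0.15 and from -0.39 to -0.18. Of 6 erythroid markers 3 were called higher in Chd8 neo/-, among them the embryonic globin genes Hba-x and Hbb-bh1 (log2 0.94 and 1.61, adjusted p = 0.0433 and 0.0425 in edgeR). At E10.5 the sum of 8 meningeal and mesenchymal markers was 901 to 1097 CPM in cKO and 720 to 809 in Ctrl, with 3 of 8 called higher. The sum of 4 pericyte markers was 63.1 to 70.6 against 42.2 to 56.7 CPM. Most of it was Pdgfrb (58.4 to 65.5 against 38.4 to 51.9), the only 1 of the 4 called. Abcc9 and Rgs5 overlapped between the groups, Rgs5 with the lower median in cKO, and Kcnj8 was near 0 in both. No neuron marker was called at E10.5, where Neurod6 was at 0 in all 6 libraries. Called lower there were 1 of 6 progenitor markers, Sox1 (-0.63), and 1 of 6 ventral telencephalon markers, Gsx2 (-1.43). These lists ran from -0.63 to 0.15 and from -1.43 to 1.04. The cKO carries sox1-Cre and the Ctrl labels name no Cre, and an effect of this allele on Sox1 counts was not tested. Called higher were 1 of 8 endothelial markers, Cdh5 (0.25), and 1 of 6 microglia markers, Cx3cr1 (0.48). Their lists ran from -0.34 to 0.25 and from -0.28 to 0.48.

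The 4 wider lists below hold 63 calls over the comparisons, of which 12 were lost with the replicate block, 22 with GC and length trends removed and 29 with both. The remaining amino acid transporters gave a list of 44 genes, of which 32 were tested at E12.5 and 31 at E10.5. None was called in Chd8+/-. Against wildtype, the mild hypomorph had 1 that rose and 4 that fell, 15.6% of the list against 8.16% of all genes, with a median log2 difference of -0.10. The severe hypomorph had 1 that rose and 2 that fell, 9.38% against 11.5%, with a median of -0.09. Slc36a4, a proton-assisted type carrier of proline and tryptophan, fell from 62.1 ± 0.572 CPM in wildtype to 48.5 ± 2.04 in the mild and 47.0 ± 1.81 in the severe hypomorph (log2 -0.36 and -0.40, adjusted p = 0.00138 and 0.000147 in edgeR). Slc43a1 (LAT3), a carrier of leucine and other large neutral amino acids, rose from 22.6 ± 2.00 CPM to 28.7 ± 1.52 and 30.1 ± 1.08 (log2 0.35 and 0.42, adjusted p = 0.00703 and 0.00122 in edgeR). Both kept their calls in 23 of 23 alternatives in each hypomorph. Slc38a7, which exports glutamine from lysosomes, fell from 34.2 ± 2.02 CPM to 26.8 ± 2.68 and 25.9 ± 1.81 (log2 -0.35 and -0.40, adjusted p = 0.0269 and 0.01 in edgeR).

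The same list in Chd8 neo/neo against Chd8+/- held 1 gene that was higher and 3 that were lower, 12.5% against 5.28% of all genes. The higher gene was Slc43a1 (log2 0.37, adjusted p = 0.0143 in edgeR) and the lower genes included Slc36a4 (-0.28, adjusted p = 0.0137 in edgeR, and 0.0501 with trends removed), the glutamate carrier Slc1a1 and the Slc3a2 partner Slc7a8 (LAT2). Slc1a1 stood at 1.66 ± 0.621 CPM in Chd8 neo/neo against 2.97 ± 0.341 in wildtype and 3.31 ± 0.43 in Chd8+/- (log2 -0.83 and -0.99, adjusted p = 0.0316 and 0.0255 in edgeR). Slc7a8 stood at 3.87 ± 1.04 against 5.72 ± 0.389 CPM in Chd8+/- (log2 -0.56, adjusted p = 0.049 in edgeR), a call kept in 7 of 23 alternatives. It was also called lower in Chd8 neo/neo against wildtype (-0.53, adjusted p = 0.0453 in edgeR), kept in 10 of 23 alternatives. No gene of the list was called in Chd8 neo/- against Chd8 neo/neo. At E10.5, 2 of 31 rose and 0 fell, 6.45% against 11.4%: Slc43a2 (LAT4), from 8.90 ± 0.41 to 11.5 ± 0.846 CPM (log2 0.37, adjusted p = 0.0278 in edgeR), and Slc38a10, from 87.8 ± 3.98 to 101 ± 3.54 CPM (log2 0.20, adjusted p = 0.0486 in edgeR). Both lost the call with trends removed (log2 0.26 and 0.08, adjusted p = 0.0967 and 0.38 in edgeR).

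Targets of ATF4 and genes of serine synthesis, 23 tested at E12.5 and 24 at E10.5, changed in both directions. The mild hypomorph had 1 that rose (Pycr1, proline synthesis, log2 0.28, adjusted p = 0.0108 in edgeR) and 1 that fell (Aldh1l2, mitochondrial folate metabolism, -0.31, adjusted p = 0.0217 in edgeR, and 0.0662 with trends removed). In the severe hypomorph 2 rose and 2 fell: Pck2 (0.28), Pycr1 (0.19), Aldh1l2 (-0.25) and Ddit4 (-0.30), an inhibitor of mTORC1. Pck2 was called in 10 and Ddit4 in 15 of 23 alternatives, and all 4 calls were lost with the replicate block (adjusted p = 0.0606 and 0.0528 in edgeR for Pck2 and Ddit4). The shares were 8.70% and 17.4%, against 8.16% and 11.5% of all genes. Between Chd8 neo/neo and Chd8+/- 3 were called, 13% against 5.28% of all genes: Pycr1 (0.23), Aldh1l2 (-0.35) and, named to complete the count after its value was seen, Eif4ebp1 (0.34, adjusted p = 0.0421 in edgeR), a repressor of translation that mTORC1 inhibits. Pycr1 lost its call with the replicate numbers as a block (adjusted p = 0.0544 in edgeR), and all 3 lost it with trends removed. At E10.5, 1 of 24 rose and 1 fell, 8.33% against 11.4% of all genes. Sesn2, a leucine sensor of mTORC1 and a target of p53 as well as ATF4, rose from 20.3 ± 1.71 CPM in Ctrl to 87.2 ± 12.2 in cKO (log2 2.1, SE 0.11, adjusted p = 8.47e-06 in edgeR), and Atf4 fell from 271 ± 3.79 to 204 ± 21.4 CPM (log2 -0.40, adjusted p = 0.00657 in edgeR).

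Of 36 genes of amino acid sensing by mTORC1, 3 rose and 2 fell in the mild hypomorph, 4 rose and 4 fell in the severe and 4 rose and 3 fell in the E10.5 cKO, which is 13.9%, 22.2% and 19.4% of the list, against 8.16%, 11.5% and 11.4% of all genes. Castor2, a subunit of the arginine-sensing complex, fell from 95.9 ± 4.36 CPM in wildtype to 78.7 ± 3.19 and 74.7 ± 3.75 in the hypomorphs (log2 -0.28 and -0.36, adjusted p = 0.012 and 0.0018 in edgeR). Mlst8, a subunit of mTORC1 itself, rose in Chd8 neo/neo (log2 0.24, adjusted p = 0.0123 in edgeR), in Chd8 neo/- (0.23, adjusted p = 0.00861 in edgeR) and in the E10.5 cKO (0.42, adjusted p = 0.00388 in edgeR). The lysosomal anchor Lamtor1 rose in Chd8 neo/neo (0.23, adjusted p = 0.0202 in edgeR, and 0.0548 with trends removed) and in Chd8 neo/- (0.29, adjusted p = 0.0042 in edgeR). Tsc2, a brake on mTORC1, rose in the cKO (0.34, adjusted p = 0.0135 in edgeR). Castor2 and Mlst8 were also the 2 genes called between Chd8 neo/neo and Chd8+/- (log2 -0.23 and 0.20), 5.56% against 5.28% of all genes, and both lost the call with the replicate numbers as a block (adjusted p = 0.0596 and 0.06 in edgeR).

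Among 17 enzymes of glutamine, glutamate and glutathione metabolism, 2 rose and 3 fell in the mild hypomorph, 1 rose and 4 fell in the severe, and 4 rose and 0 fell in the E10.5 cKO, shares of 29.4%, 29.4% and 23.5% against 8.16%, 11.5% and 11.4% of all genes. Glutathione synthetase, Gss, stood at 12.4 ± 1.43 CPM in wildtype, 16.1 ± 0.635 in the mild and 18.4 ± 0.235 in the severe hypomorph (log2 0.38 and 0.57, adjusted p = 0.012 and 0.000513 in edgeR), and at 12 ± 0.957 in Ctrl and 21.6 ± 1.05 in cKO (0.85, adjusted p = 0.00031 in edgeR). It rose in all 3, whereas the cystine carrier Slc7a11, which feeds the same pathway, was called in none. Ornithine aminotransferase, Oat, fell from 95.4 ± 5.0 CPM to 83.1 ± 1.55 and 82.1 ± 3.78 in the hypomorphs (log2 -0.20 and -0.22, adjusted p = 0.0244 and 0.0116 in edgeR). Cad, which takes glutamine nitrogen into pyrimidines, rose from 257 ± 35.3 to 380 ± 25.5 CPM in the cKO (0.57, adjusted p = 0.00542 in edgeR). Between Chd8 neo/neo and Chd8+/-, Gfpt1 was lower (-0.21, adjusted p = 0.0147 in edgeR, and 0.179 with trends removed) and proline dehydrogenase, Prodh, higher (0.35, adjusted p = 0.0328 in edgeR). Both were also called against wildtype in Chd8 neo/neo (-0.16 and 0.34, adjusted p = 0.0259 and 0.0253 in edgeR). There Gfpt1 lost its call with trends removed (adjusted p = 0.454 in edgeR).

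**Figure D4:**
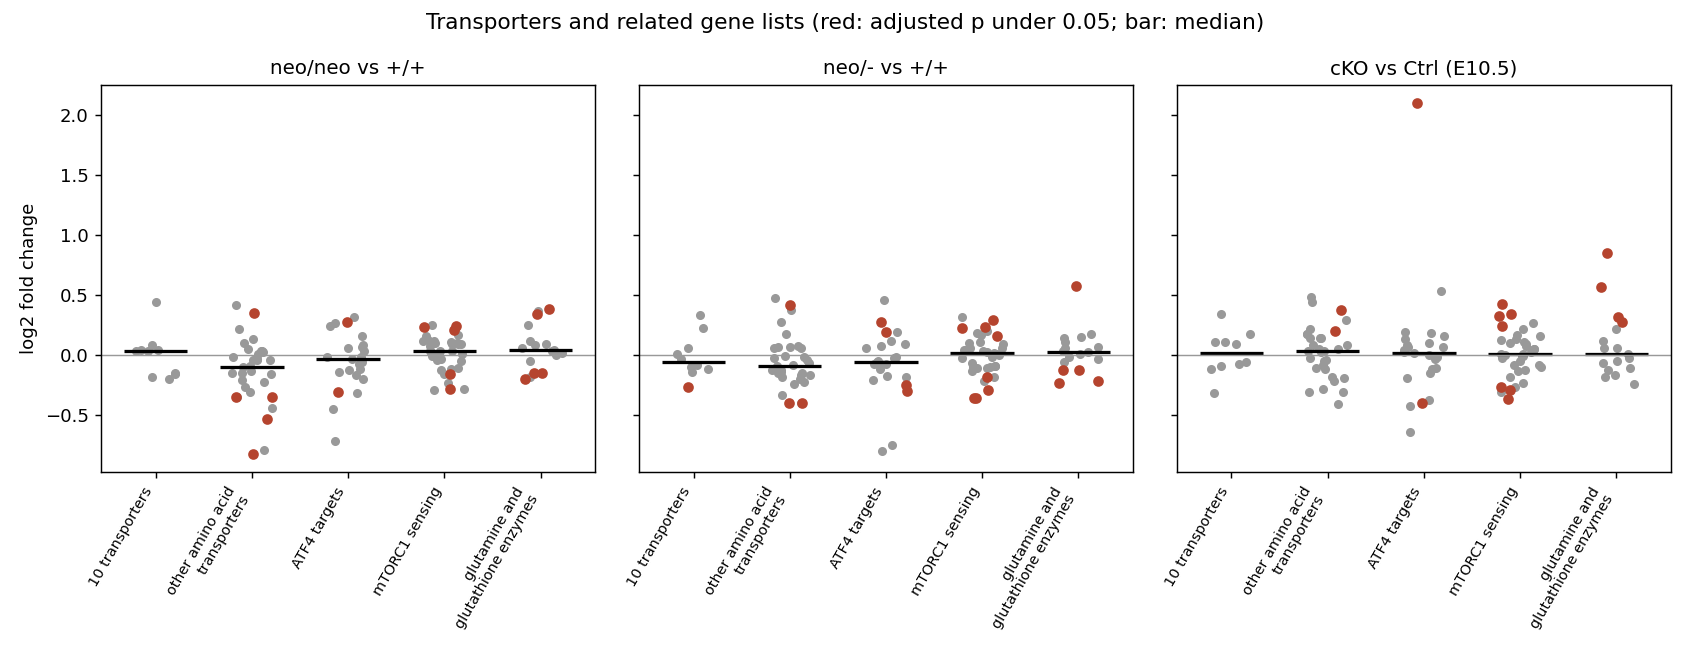
Log2 differences of single genes (points) in the 10 transporters and in 4 related lists, for both hypomorphs against wildtype and for the E10.5 cKO against Ctrl. Red points have an adjusted p under 0.05 over all genes (Slc1a5 at E12.5 is left uncoloured, since it was not tested there) and black bars are list medians. Medians lie near 0 in every list, the lowest being -0.10, and Sesn2 at 2.1 stands above all other points.

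The genes whose levels ran most like Slc1a5 over the 12 E12.5 libraries, of 14786 compared on the log2 CPM scale, were Srebf1 (Pearson r = 0.987), Obsl1 (0.981), Cenpa (0.98), Cep164 (0.972) and Aldh16a1 (0.97). Srebf1, a transcription factor of lipid synthesis, had means of 77.8 ± 8.35, 80.7 ± 4.25, 104 ± 2.03 and 94.0 ± 5.43 CPM from wildtype to severe hypomorph. After the mean of each genotype was subtracted, r with Slc1a5 remained at 0.982 for Srebf1, 0.973 for Obsl1, 0.936 for Cenpa, 0.982 for Cep164 and 0.92 for Aldh16a1, in the same libraries that chose them. Points of a library share its depth, its dissection and its base composition, and the transcripts of Srebf1, Obsl1, Cep164 and Aldh16a1 are 58.4%, 62.5%, 57.7% and 56.0% GC, against 56.7% for Slc1a5 and a median of 49.3% over the genes tested. Cenpa, at 48.7% GC, is near that median. Within the group, Slc1a4 ran opposite to Slc1a5 (r = -0.922, and -0.79 with genotype means subtracted), and Slc7a1 and Slc38a2 had r of -0.70 and -0.68, and of 0.02 and -0.10 with genotype means subtracted. Slc3a2 had r of 0.69 (-0.25 with genotype means subtracted) and Slc6a9 0.50 (0.71). Over the 6 E10.5 libraries Slc1a4 had r of 0.31 with Slc1a5 (0.14 with group means subtracted), and Dgkq and Mecom were the most like it (0.998 and 0.991). The library with the lowest Slc1a5, Chd8+/+ 2, was the one with the highest Slc1a4, at 67.5 CPM.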

How the data were processed

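The deposited tables hold raw read counts per gene, which the authors made with Trim Galore 0.4.1, TopHat2 2.1.0 and featureCounts 1.5.0 on GRCm38 with Ensembl annotation, 1 column per sequencing run, per the file headers and the submitters' notes. The libraries were made with dUTP, which marks strand, but the E12.5 counting command named no strand or multimapping option and the E10.5 table carries no command. Each of the 18 libraries (12 at E12.5, 6 at E10.5, 3 per group) was the sum of 2 runs. Gene lengths are the other deposited measure used, and per-length levels are CPM divided by them.

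The stages were fitted separately with edgeR 4.0.16 (R 4.3.3): filterByExpr, TMM, all groups of a stage in 1 robust quasi-likelihood model and Benjamini-Hochberg adjustment over 18810 and 18435 genes, called at an adjusted p under 0.05. SE is the log2 difference over the square root of F, and intervals are 95%. CPM values are TMM-scaled. DESeq2 1.42.0, which the study used, was an alternative, beside other scalings, filters, runs, sex as a covariate, the compared groups alone, a replicate block, each library left out, and, added after seeing the data, removal of GC and length trends by loess, first in turn and then together, with the joint form reported because of a constraint on printing and not for its calls (both are compared under the dependence on processing). GC is that of the longest GENCODE transcript, known for 99.4% of the genes tested. P-values weigh a difference against the spread between these embryos or pools. That spread was moderated over all genes and, at E12.5, shared over the 4 genotypes. The script was tested on simulated counts.

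The 10 genes, the related lists and the markers were chosen with earlier results of these data known, and no list is independent support. Slc1a5 at E12.5 was not tested. Beyond the 10, the named genes are those called with the smallest adjusted p in each comparison (at most 4 other transporters and 2 of every other list), the 5 genes most correlated with Slc1a5 at a mean of at least 1 CPM, Chd8, Xist and markers beside results. Samtor, of the mTORC1 list, matched no row. Replicate numbers in the labels recur in every group. Same-numbered Chd8 neo/neo and Chd8+/- libraries deviated together from their group means (correlations across genes of 0.108, 0.195 and 0.199). The labels do not say what the number stands for. By the study's crosses these 2 genotypes came from different matings, so the number is not a shared litter. No other pair of groups compared here had a positive correlation for all 3 numbers. The main fit had no block for the number, which entered only as the alternative with a replicate block. Promoter sequences are RefSeq's, in GRCm38.p6. The tables hold 0 columns of other samples. A marker result that needs a withheld item is not reported here.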

Additional observations from a re-analysis of the deposited data

How the results depend on the processing

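The call of Slc7a1 in Chd8 neo/- was lost only where GC and length trends were removed, without and with the replicate block (0 of the 9 carriers called in each, log2 -0.16 and -0.159), and the cause was not tested. DESeq2 called 2 there. Among the mild hypomorph's carriers against wildtype, where none was called, 3 were called with upper quartile scaling, 2 without a filter, 2 with sex as a covariate and 3 with DESeq2, always from Slc1a4, Slc38a2 and Slc7a1, and 0 to 2 when 1 library was left out. Leaving out 1 library gave 1 to 2 in Chd8 neo/- and 0 to 1 at E10.5, where DESeq2 gave 1. The 55 tested log2 differences changed sign in 57 of 1185 recomputations, over 20 results of at most 0.185 in size, none of them called, and the untested Slc1a5 in Chd8+/- against wildtype ran from -0.08 to 0.09.

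The background counts depended more on the processing. Of 4 genes called in Chd8+/- against wildtype, 2 remained as a count with the replicate block, 2 with trends removed and the block, 1 with the compared groups alone and 15 with DESeq2. The 1534 genes of Chd8 neo/neo against wildtype became 967 with trends removed, 670 with the block added, 1005 with sex as a covariate, 430 with the compared groups alone and 2285 with DESeq2. The 2158 of Chd8 neo/- against wildtype became 1296 and 1068 with trends removed, without and with the block. The 994 of Chd8 neo/neo against Chd8+/- became 572 with the replicate block, 316 and 217 with trends removed, 387 with sex, 42 with the compared groups alone and 1788 with DESeq2. The 3 of Chd8 neo/- against Chd8 neo/neo became 9 without a filter, 1 with the compared groups alone and 27 with DESeq2. Leaving out 1 library gave 2 to 6, 435 to 2605, 1015 to 2574, 23 to 2100, 1 to 23 and, for 2110 at E10.5, 538 to 2483. Without Chd8 neo/neo library 3 the counts were 2605, 2100 and 23 in the comparisons that hold it, and without Chd8 neo/neo library 2 they were 435, 23 and 1. The trends were first removed in turn, GC and then length, and afterwards together, the form given here. In turn, without the block, 0.0159%, 4.95%, 6.88%, 1.5%, 0.0106% and 11.1% of genes were called in the 6 comparisons, against 0.0159%, 5.14%, 6.89%, 1.68%, 0.0106% and 11.2% together. With the block they were 0.0106%, 3.69%, 5.69%, 0.792%, 0.0106% and 13.4%, against 0.0106%, 3.56%, 5.68%, 1.15%, 0.0106% and 13.4%. Of the carriers tested none was called in either form, and Slc7a5 in Chd8 neo/- was -0.008 in turn and 0.005 together. The block changed no call among the carriers: those called stayed at 0, 0, 1, 0, 0 and 0. It gave 1161 and 1721 genes in Chd8 neo/neo and Chd8 neo/- against wildtype, 2 between the hypomorphs and 2598 at E10.5. In the 4 wider lists the block ended 1 of 17 calls in Chd8 neo/neo and 8 of 20 in Chd8 neo/- against wildtype, 3 of 11 between Chd8 neo/neo and Chd8+/- and 0 of 15 at E10.5, and the removal of trends ended 5, 7, 8 and 2.

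Sign changes of tested carriers, in log2 units, were these. In Chd8+/- against wildtype, Slc3a2 became 0.001 with RLE scaling, 0.001 with DESeq2, 0.022 in run 1 and 0.002 and 0.002 with trends removed. In run 2 Slc6a9 became -0.039, Slc7a3 0.202 and Slc7a5 0.004. In Chd8 neo/- against wildtype, Slc7a5 became -0.002 without a filter, and Slc7a11 became 0.083 and 0.088 with trends removed, without and with the block. In Chd8 neo/neo against Chd8+/-, Slc6a9 became -0.004 without a filter, -0.043 in run 1, -0.01 and -0.015 with trends removed and -0.001 with DESeq2, Slc7a3 0.31 in run 1 and Slc38a1 -0.002 with sex. Between the hypomorphs, Slc1a4 became -0.002 in run 1 and -0.008 with sex, and Slc7a5 0.034 with sex. With 1 library left out, the ranges that crossed 0 in Chd8+/- against wildtype were -0.018 to 0.06 for Slc38a1, -0.316 to 0.019 for Slc7a3, -0.046 to 0.154 for Slc6a9, -0.093 to 0.007 for Slc7a1, -0.022 to 0.016 for Slc3a2 and -0.08 to 0.051 for Slc7a5. Against wildtype the mild hypomorph gave -0.019 to 0.122 for Slc7a5, -0.06 to 0.155 for Slc6a9 and -0.06 to 0.095 for Slc7a11, and the severe hypomorph -0.232 to 0.099 for Slc7a3, -0.051 to 0.084 for Slc7a5 and -0.107 to 0.02 for Slc7a11. Between Chd8 neo/neo and Chd8+/- they were -0.087 to 0.098 for Slc6a9, -0.096 to 0.076 for Slc7a3 and -0.01 to 0.071 for Slc38a1. With 1 library left out they were, between the hypomorphs, -0.008 to 0.056 for Slc1a4, -0.131 to 0.025 for Slc7a11 and -0.089 to 0.01 for Slc7a5, and at E10.5 -0.004 to 0.176 for Slc6a9 and -0.01 to 0.17 for Slc7a1. Depth limits Slc7a3 most, at 47 to 82 counts a library at E12.5.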
